A study of Mus musculus with 94 samples.

Results

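The stromal cells of peri-aortic fat were chosen by measured values from the table of single PV-ADSCs (perivascular adipose tissue-derived mesenchymal stem cells), as the cells with a deposited value of at least 1000 for Dcn (decorin) and at least 100 for Col3a1 (the chain of type III collagen). Of the 85 cells in the table, 58 passed, which is 68.2% (exact Clopper-Pearson 95% interval, 57.2% to 77.9%), and 27 did not. Every cell came from the peri-aorta adipose tissue of mice of the strain given as c57/bl, aged 8 weeks. The cells were freed with collagenase I, sorted as CD144-/CD45-/CD29+/Sca1+ and sequenced without culture as full-length cDNA (SMARTseq v4), 1 library per cell. The series describes 94 such cells, of which 9 were not analysed here. No animal is named for a cell, and there is 1 condition, which makes the cells 1 sample, so the values below describe cells and carry no test.

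Stromal cells of adipose tissue are fibroblast-like cells that lie between adipocytes and around vessels. They build the interstitial matrix from collagens, proteoglycans and elastic fibre proteins, secrete complement and growth factor-binding proteins, and include the cells from which new adipocytes arise. In many tissues, fibroblasts of the outer vessel wall and of interstitial sheaths carry Pi16, Dpp4 and Cd55, whereas other fibroblasts lie closer to capillaries.

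The deposited values are normalized read counts. Whole reads were recovered from them, and a level is given as recovered reads per cell, or, to compare genes, as CPM per kb of exon, where CPM is the number of recovered reads scaled to a total of 1000000 per cell. The 58 cells held between 1146945 and 4776510 recovered reads (median 2963854) and between 850 and 4148 genes above 0 (median 2813). Across the 58 cells, the number of genes and the number of reads had a Pearson r of 0.34. The rule left a wide gap on the deposited scale, as the other cell nearest to it held 269 for Dcn and 87.2 for Col3a1. Inside the rule, the lowest cell held 6521 for Dcn and 567 for Col3a1, and the next lowest values were 11185 and 2070.

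The lowest cell stood apart from the other 57. Its deposited values of both genes were 94.5 times its recovered reads, so that it held 69 reads of Dcn and 6 of Col3a1, whereas each of the other 57 cells held at least 18172 and 2001. The other 27 cells held up to 248 and 43 reads, so on the scale of reads this cell lay among them. It had the fewest reads and genes of the 58 cells, 0 reads of Col1a1, Pdgfra, Lum, Vim and Ly6a, 28 of Gsn, and 9796 of Fabp4 and 1317 of Cd36. It is kept in all counts of 58, and values without it are given for 57 cells.

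**Figure D1:**
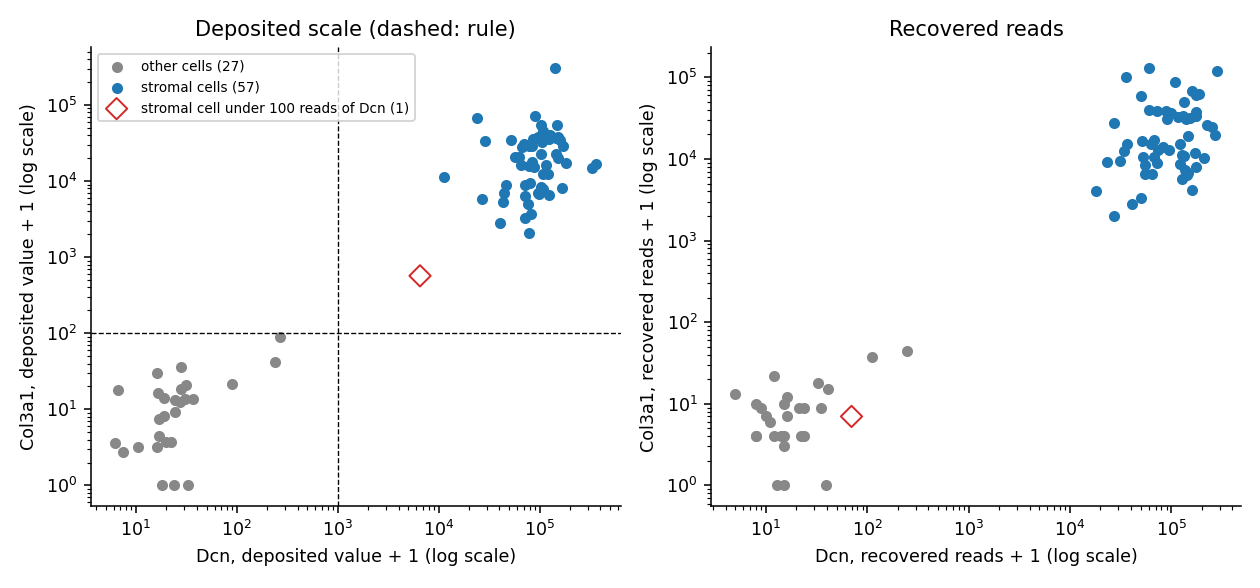
Dcn against Col3a1 in the 85 cells, as deposited values plus 1 on the left and recovered reads plus 1 on the right, all axes on a log scale, 1 point per cell. Blue points are 57 stromal cells, grey points the 27 other cells, and the red diamond the stromal cell with 69 reads of Dcn, which lies past the dashed lines of the rule on the left and among the grey points on the right.

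The 4 stromal markers that the rule did not use were read mostly in the same cells. They were chosen with earlier results of these data known, so they are not independent support for the label. Gsn (gelsolin, which severs actin filaments) was above 0 in 58 of 58 cells, Col1a1 (type I collagen) in 57, Lum (lumican, a collagen-binding proteoglycan) in 55 and Pdgfra (the receptor of PDGF-A) in 49. At 100 reads or more, these were 57, 53, 49 and 46 cells, compared with 2, 0, 0 and 0 of the other 27 cells. At that level, 3 or more of these 4 markers were read in 51 stromal cells, and no other cell held more than 1 of them. Requiring at least 3 of Col1a1, Pdgfra, Lum and Gsn at a deposited value of 100, in place of Dcn and Col3a1, chose 52 cells, all of them among the 58.

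The 10 genes with the most reads in a cell held a median of 15.3% of its reads (range 9.84% to 45.2%), and its 100 leading genes held 39.7% (31.7% to 84.01%). Dcn was the protein-coding nuclear gene of highest level per length, at 5997 ± 3092 CPM per kb (mean ± SD over 58 cells), followed by Gsn at 5476 ± 4294. Their reads per cell ranged from 69 to 282890 for Dcn (median 96905) and from 28 to 237547 for Gsn (median 39337). The SDs of both genes over cells exceed the distance between their means, and the difference was not tested. The rule chose cells of high Dcn, which was on average 3.5% of a cell's reads.

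The next genes were the ferritin light chain Ftl1 at 3718 ± 2668, Ifitm3, an interferon-induced membrane protein, at 3284 ± 3038, and Fos, an immediate early transcription factor, at 2873 ± 2544 CPM per kb. Ly6a, which encodes Sca1, was at 2860 ± 2267, B2m, the light chain of MHC class I, at 2844 ± 2171, and the ferritin heavy chain Fth1 at 2813 ± 1517. From Ftl1 to Fth1, neighbours differed by less than their SD. The other genes among the leading 20 were Cst3 (cystatin C), Mgp (matrix Gla protein), Tmsb4x (thymosin β4), Gstm1, Igfbp6, S100a11, Rnase4, Mfap5, Ubb, Sparc, Serpinf1 and Gpx3, between 1440 and 2359. The 20 genes together held 11.99% ± 3.78 of the reads, with 0.695% in the lowest cell. The same 20 genes led in the 57 cells, 18 of them led by the median over cells, and 14 led when CPM was not divided by exon length.

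When all gene types were ranked, the leading 20 genes held 13.7% ± 4.66 of the reads, and mt-Rnr2, Gm22133, Gm29216, Gm10925, mt-Co3, Gm28437, mt-Rnr1, mt-Atp6, Gm26377 and mt-Cytb were among them. Gm22133 and Gm26377, annotated as miRNAs with 109 and 108 bases of exon, were at 11627 ± 7800 and 3587 ± 2820 CPM per kb. Genes of the mitochondrial genome took between 0.95% and 33.5% of a cell's reads (median 3.21%). Their levels are uncertain, since the nuclear genome holds copies of them, such as Gm28437, and reads of a copy and its parent cannot be told apart. mt-Co1 was at 0 in 26 cells and at 1000 reads or more in 23, and mt-Nd1 at 0 in 24, although mt-Co3 was above 0 in every cell. Low reads of Gapdh, a glycolytic enzyme with many copies in the genome, are uncertain for the same reason (above 0 in 50 cells, median 67 reads).

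**Figure D2:**
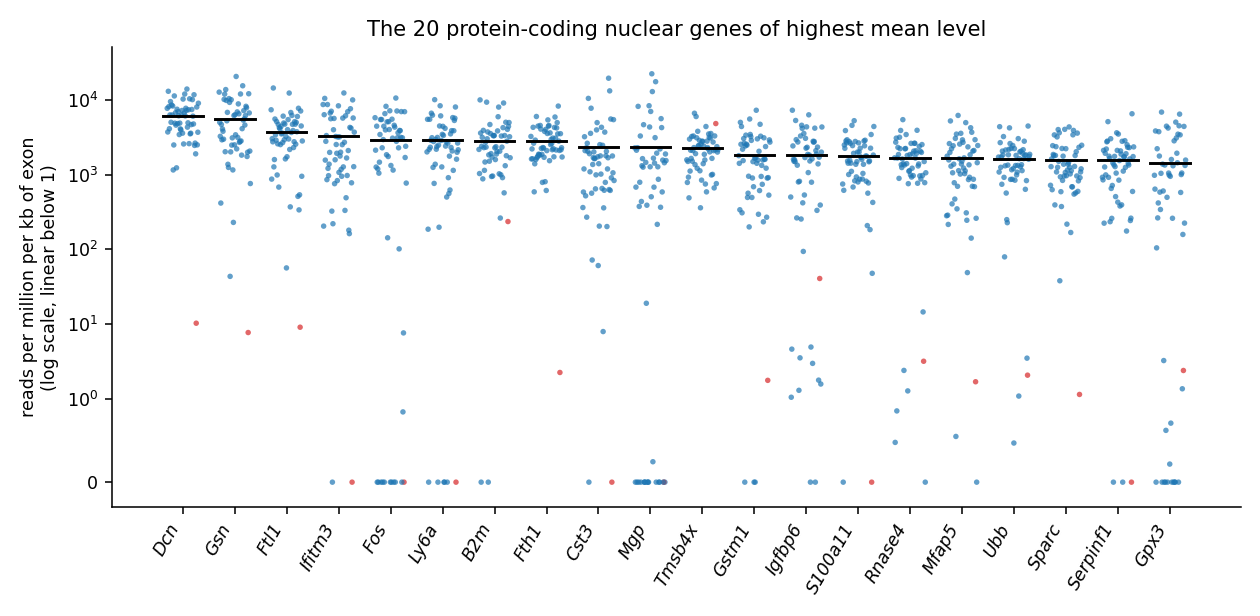
Level of the 20 leading protein-coding nuclear genes in CPM per kb of exon (log scale, linear below 1), 1 point per stromal cell and a bar at the mean. Red points are the cell with 69 reads of Dcn, and Fos, Mgp and Gpx3 are at 0 in 11, 16 and 10 cells.

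Small leucine-rich proteoglycans bind collagen fibrils. Their 9 genes held a median of 4.35% of a cell's reads (lowest 1.02% in the 57 cells, highest 9.43%), most of it from Dcn, which the rule used. The 8 genes other than Dcn held a median of 0.769% (lowest 0.0523% in the 57 cells, highest 2.03%), compared with a median of 0.000145% and at most 0.233% in the other 27 cells. Dcn was found in 58 cells, Lum in 55, Bgn (biglycan) in 54, Aspn (asporin) in 47 and Ogn (osteoglycin) in 37. Fmod, Omd and Podn were found in the fewest, in 2, 10 and 18 cells. A gene counts as found at 1 read or more, and the median gene of the whole table was found in 5 of the 58 cells.

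Collagens were broadly present. All 16 collagen genes were found in at least 10 cells. Of the 15 genes other than Col3a1, which the rule used, 11 were found in 29 cells or more, compared with 10.4% of all 16069 genes. Col3a1 was found in 58 cells, Col1a1 in 57, and Col1a2, Col6a1 and Col6a2 in 50, 50 and 48. The collagen genes held a median of 1.19% of the reads and up to 8.80%, and the 15 genes other than Col3a1, which the rule used, 0.523% and up to 3.08%. Per length, Col3a1 was at 891 ± 969 and Col1a1 at 61.8 ± 64.4 CPM per kb. Col1a1 did not exceed 5034 reads in any cell (median 758), while Col3a1 reached 129248 (median 15174). The fewest cells held Col5a3 (10), Col8a1 (15) and Col16a1 (15).

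Genes that process collagen were split. Sparc, a secreted collagen-binding protein, was found in 58 cells, Serpinh1, the collagen chaperone, in 55, and Loxl1, Pcolce and Pcolce2 in 52, 52 and 49. Lox, the lysyl oxidase that cross-links collagen, was found in 1 cell with 1204 reads, Plod1 in 6 and P4hb in 12. Of the elastic fibre genes, 13 of 20 were found in 29 cells or more, compared with 10.4% of all genes. Mfap5 (a microfibril protein), Fbln2 (fibulin 2), Fn1 (fibronectin), Fbln1 and Nid1 were found in 57, 55, 53, 52 and 52 cells, whereas Eln (elastin) was found in 9 and reached 100 reads in 3.

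Secreted regulators formed a further share. Protease and inhibitor genes held a median of 1.82% of the reads and at most 4.79%, compared with 0.609% and at most 1.76% in the other 27 cells. Among them, 14 of 18 were found in 29 cells or more, compared with 10.4% of all genes. They were led by Timp2 (58 cells), Cst3 (56), Serpinf1 (55), Ctsb (54) and Serping1 (52). Timp2 inhibits matrix metalloproteinases, and Mmp2, one of these, was found in 51 cells. Timp1, Mmp3 and Adamts1 were each found in 10. Complement genes held a median of 0.958% of the reads and at most 3.59%. Serping1 is counted in both lists, so their shares overlap. C3, the central complement component, was found in 55 cells, with a median of 10538 and a maximum of 88012 reads, and in 4 of the other 27 cells. The inhibitor Serping1 and the protease C1ra were found in 52 and 51 cells, and C1rb in 47, compared with 4, 15 and 15 cells for Cd59a, C2 and Clu.

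Binding proteins of insulin-like growth factor were common. Igfbp6 was found in 56 cells, Igfbp4 in 53, Igfbp7 in 48 and Igf1 itself in 48. Igfbp5 was found in 36, and Igf2 and Igfbp2 in 1 each. Of 14 chemokines and cytokines, the median gene was found in 16 cells, compared with 5 in the whole table, and 3 were found in 29 cells or more, compared with 10.4% of all genes, namely Cxcl1, which attracts neutrophils (39), Il33, an alarmin (37), and Csf1, the growth factor of macrophages (35). Ccl11 was found in 26 cells, Il6 in 19, and Cxcl14 and Tslp in 4 each. These genes held a median of 0.324% of the reads but between 0.000132% and 3.41% in single cells. Ccl19 was found in 14 cells but never at 100 reads.

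On the cell surface, Ly6a was at 0 in 6 cells and at 100 reads or more in the other 52, with a median of 8223 reads. Itgb1, which encodes CD29, was found in 35 of the 58 cells (60.3%, exact interval 46.6% to 72.95%), although every cell was sorted as CD29+ by its protein. Cdh5, which encodes CD144, the antigen gated out, was found in 7 cells with at most 57 reads, compared with 20 of the other 27 cells at 100 reads or more. The CD45 gene Ptprc was not analysed here. Of the mesenchymal surface markers, Cd63 was found in 55 cells, Cd81 in 45, Cd9 in 40 and Cd34 in 38, compared with 17 for Thy1 (CD90), 10 for Vcam1 and 9 for Alcam. Among growth factor receptors, Lrp1 (50 cells), Pdgfra (49), Tgfbr2 (45), Tgfbr3 (44) and Fgfr1 (42) led, and Pdgfrb, the receptor of PDGF-B, was found in 19 with 0 reads in the median cell.

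Immediate early genes, which cells switch on within minutes of a stimulus, including tissue digestion, held a median of 1.84% of the reads in the 58 cells and 1.84% in the other 27. Of the 21 genes, 16 were found in 29 cells or more, compared with 10.4% of all genes. Jun, Junb, Jund and Egr1 were each found in 57 cells and Klf6 in 55, and Egr3, Egr2 and Fosl1 in 1, 4 and 5. The part of tissue digestion in these levels was not tested. Heat shock genes were led by Hspa8 (58 cells), Dnaja1 (56) and Hsp90ab1 (49). They held a median of 0.618% of the reads, compared with 1.32% in the other 27 cells.

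Iron, metal and redox genes held a median of 2.18% of the reads, compared with 0.777% in the other 27 cells. Fth1, which stores iron, held between 9 and 68615 reads (median 23576), and at least 5384 in each of the 57 cells. Ftl1 held between 14 and 56348 (median 12034). Mt1, a metallothionein, was above 0 in every cell, with a median of 2670 reads, and reached 100 reads in 4 of the other 27 cells. Prdx1 and Gpx1 were found in 54 and 52 cells, and Cat (catalase), Sod2 and Sod1 in 9, 12 and 29. Cytoskeletal and calcium-binding genes were the list found in the most cells after the stromal markers, with a median of 53 cells per gene. Among them, Actb, Tmsb4x, Tmsb10, Anxa1 and S100a10 were found in all 58, and S100a4, Lgals3 and Tpm2 in 2, 5 and 7.

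In all, 45 genes of 16069 (0.28%) were above 0 in every stromal cell, and without the cell of 69 Dcn reads there were 69, which included all 45. Of the 45 genes, 21 were protein-coding and nuclear, 6 were of the mitochondrial genome, 13 were pseudogenes, 3 miRNA entries and 2 lincRNAs. At 10 reads or more, 16 genes remained above that level in all 58 cells and 35 in 57. At 100 reads or more, 18 genes were found in all 57, of which 13 were protein-coding and nuclear, namely Dcn, Col3a1, Gsn, Sparc, Timp2, Anxa1, Fth1, Ftl1, Actb, Tmsb4x, Eef1a1, Rpl13 and Rpl35. The rule itself placed Dcn and Col3a1 among the genes above 0 in every cell. The 57 cells were those with at least 100 reads of Dcn, so Dcn was fixed at that level too.

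Some of these genes were also read widely in the other cells. Of the 45 genes, 16 were above 0 in every one of the other 27 cells. Anxa1, a calcium-dependent phospholipid-binding protein, was read in few of them, with 4 to 22999 reads in the stromal cells (median 5556) and above 0 in 5 of the other 27 cells, none of them at 100 reads. Timp2 was above 0 in 10 and at 100 reads in 2 of those 27 cells. Dcn and Gsn were above 0 in all 27 of these cells but at 100 reads in 2 each. Conversely Fabp4, a fatty acid-binding protein with a median of 55884 reads in the other cells, was above 0 in 55 of the 58 stromal cells with a median of 6.5 reads, and at 100 reads in 6. The source of such low reads was not tested, and a value above 0 alone does not show that a cell expressed the gene.

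How evenly the ubiquitous genes were expressed differed widely. On the scale log2(deposited value + 1), the SD over 58 cells was 0.75 for Tmsb10, 0.94 for Eef1a1 (a translation elongation factor) and 0.95 for Tmsb4x, whereas it was 2.82 for Hspa8, 2.64 for Ubb and 2.38 for Malat1. Mir692-3 was listed at 1 read in every cell, which is an SD of 0.00 with no information. Dcn had an SD of 0.98, but the rule required high values of it on the same scale. Fth1 had an SD of 1.46 in 58 cells and 0.81 in 57. Hspa8 had 54 cells at 100 reads or more, a maximum of 32515, and a minimum of 1 read. Ubb, which encodes polyubiquitin, had a minimum of 2 reads, although its median was 7688. AY036118, a lincRNA, had the largest SD of the 45 genes, at 4.37, with 29 cells at 1 to 9 reads and 18 at 1000 or more. Over all 5383 genes found in at least 10 cells, the median SD was 3.64.

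**Figure D3:**
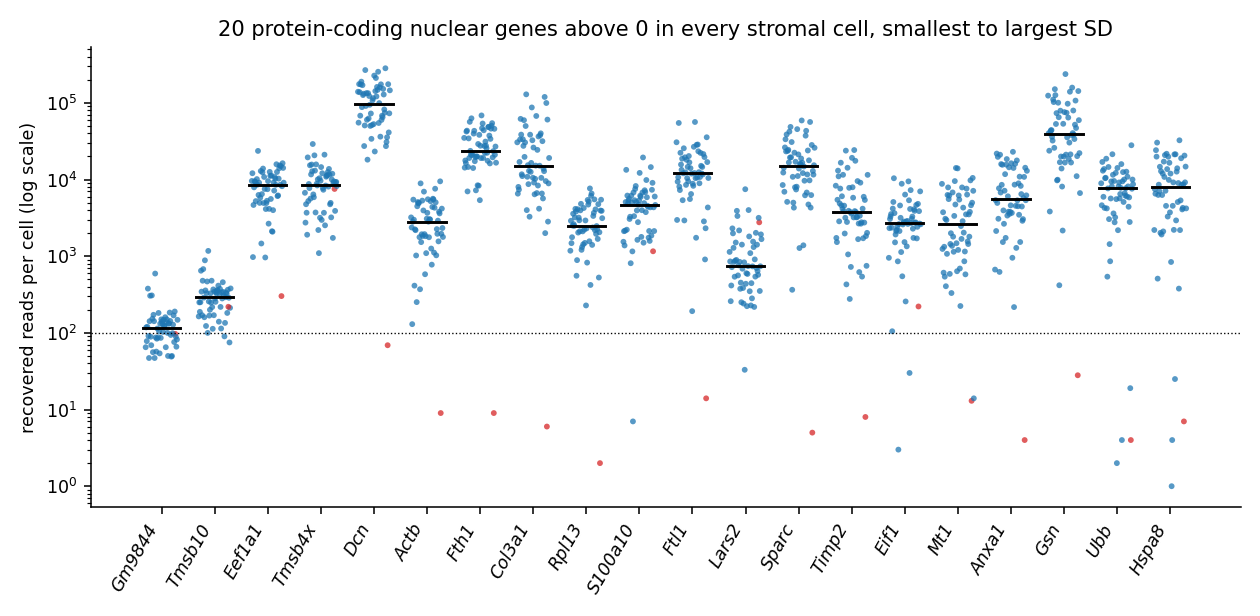
Recovered reads per cell (log scale) of 20 of the 21 protein-coding nuclear genes above 0 in every stromal cell, ordered from the smallest to the largest SD of log2(deposited value + 1), with a bar at the median and a dotted line at 100 reads. Red points are the cell with 69 reads of Dcn, and the lower tail reaches 1 read for Hspa8 and 2 for Ubb.

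The letters before the start of transcription are shown for 2 genes found in every cell, Col3a1 and Anxa1, and for 3 immediate early or cytokine genes that varied between cells, Fos, Zfp36 and Il6, since they hold the motifs that were searched. Each sequence is 250 bases, 5′ to 3′, from RefSeq (GRCm38.p6), which is not the build of the deposited files. Capitals mark TATAAA, the letters of a core promoter element, in Col3a1, Anxa1 and Fos. They also mark the CArG box, which serum response factor binds, in Zfp36, and TGANTCA, which AP-1 binds, in Il6. These are matches of letters, and whether they act in these promoters was not tested.
Col3a1, chr1:45311288-45311537, plus strand: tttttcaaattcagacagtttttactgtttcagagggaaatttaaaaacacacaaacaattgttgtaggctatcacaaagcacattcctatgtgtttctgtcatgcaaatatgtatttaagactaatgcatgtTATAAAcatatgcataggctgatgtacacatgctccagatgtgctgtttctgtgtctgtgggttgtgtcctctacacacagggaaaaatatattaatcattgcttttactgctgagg
Anxa1, chr19:20390672-20390921, minus strand: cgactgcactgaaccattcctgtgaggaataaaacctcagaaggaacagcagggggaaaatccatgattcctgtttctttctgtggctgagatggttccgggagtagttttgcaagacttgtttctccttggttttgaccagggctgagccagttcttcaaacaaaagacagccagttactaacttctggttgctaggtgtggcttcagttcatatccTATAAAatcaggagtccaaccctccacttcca
Fos, chr12:85473640-85473889, plus strand: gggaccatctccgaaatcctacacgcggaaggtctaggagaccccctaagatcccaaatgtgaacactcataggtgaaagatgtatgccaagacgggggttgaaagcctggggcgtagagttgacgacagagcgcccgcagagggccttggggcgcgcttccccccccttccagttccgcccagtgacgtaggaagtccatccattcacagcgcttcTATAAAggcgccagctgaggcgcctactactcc
Zfp36, chr7:28379229-28379478, minus strand: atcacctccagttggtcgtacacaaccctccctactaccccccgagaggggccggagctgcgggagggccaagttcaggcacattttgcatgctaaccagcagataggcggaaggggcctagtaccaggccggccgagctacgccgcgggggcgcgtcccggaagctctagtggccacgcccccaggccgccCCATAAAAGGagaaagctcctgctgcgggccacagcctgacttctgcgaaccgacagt
Il6, chr5:30012864-30013113, plus strand: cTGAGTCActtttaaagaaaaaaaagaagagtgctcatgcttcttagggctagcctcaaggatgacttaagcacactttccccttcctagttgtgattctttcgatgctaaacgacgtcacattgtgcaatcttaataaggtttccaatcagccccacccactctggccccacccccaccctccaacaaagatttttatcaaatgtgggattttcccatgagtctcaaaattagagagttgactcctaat

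TATAAA began 117 bases before the start in Col3a1, 32 in Anxa1 and 33 in Fos. The CArG box of Zfp36 began 58 bases before the start and reads as such on both strands, as does TGANTCA in Il6 at 249 bases. Of the 45 genes found in every cell, 15 protein-coding nuclear ones had a promoter in the table, and 3 of these held TATAAA on either strand (Col3a1, Anxa1 and Fth1). That is 20%, compared with 12.97% of all 27025 promoters and 6.44% of the 8694 promoters of protein-coding genes above 0 in a stromal cell. The rule required Col3a1, so its place among these 15 genes was set in advance. Of the 100 most variable genes, 67 had a promoter and 10 held TATAAA (14.9%). GGGCGG was held by 66.7% of the first set and 58.2% of the second, compared with 60.5% of the protein-coding genes above 0. CCAAT was held by 26.7% and 38.8%, compared with 36.5%, TGANTCA by 6.67% and 5.97%, compared with 4.198%, and the CArG box by 0 and 1 promoters, compared with 1.08%. With 15 and 67 promoters, these shares are descriptions of few genes.

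Among the 20 protein-coding nuclear genes of largest SD, 89.4% of the values above 0 were at 100 reads or more, and 15 of the 20 had fewer than 5 cells with 1 to 99 reads. The other 5 were Col1a2 with 22 such cells, Cxcl1 with 12, Cd34 with 6, and Atf3 and Igfbp5 with 5 each. Over all 4898 genes found in 10 to 48 cells, 61.5% of the values above 0 were at 100 reads or more and 20.5% under 10 reads. Ranking by this SD favours genes that mix 0 with high values. The scarcity of low values among the 20 genes therefore follows in part from how they were chosen. Nbl1, a secreted antagonist of BMPs, was at 0 in 29 cells and at 1000 reads or more in the other 29, up to 22332, with an SD of 6.22 on the log2(deposited value + 1) scale. It was above 0 in none of the other 27 cells. Sfrp4, a secreted inhibitor of Wnt signaling, was at 0 in 34 cells and at 1000 reads or more in 23 (SD 6.14). Smoc2, a secreted calcium-binding matrix protein, was at 0 in 42 and at 1000 reads or more in 16. No cell held between 1 and 99 reads of Nbl1, Smoc2, Ccl7, Atp6v0e, Rps3a1 or Ppp1ca. With full-length libraries of 1 cell and no molecular tags, a transcript lost before amplification and a gene not expressed cannot be told apart.

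The 20 protein-coding nuclear genes of largest SD also held the proteoglycan Ogn (SD 6.07, 37 cells), the fibulin Efemp1 (5.76, 33 cells), the microfibril protein Mfap4 (5.71, 21 cells), Timp3 (5.61, 31 cells), Igfbp5 (5.91, 36 cells) and Mgp, which inhibits calcification (5.86, 42 cells). Mgp ranged from 0 to 96990 reads, with a median of 3535. Col1a2, the partner chain of Col1a1 in type I collagen, was at 0 in 8 cells, at 1 to 9 reads in 19 and at 1000 reads or more in 24 (SD 5.96). It reached 100 reads in 28 of the 53 cells in which Col1a1 did. The chemokines Cxcl1, Ccl11 and Ccl7 had SDs of 5.83, 5.78 and 5.69 in 39, 26 and 18 cells, and Ccl7 reached 42976 reads.

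Cd34, a surface sialomucin used as a marker of adipose stromal cells, was at 0 in 20 cells, at 1 to 9 reads in 6 and at 1000 reads or more in 30 (SD 6.10). Fos was at 0 in 11 cells and at 1000 reads or more in 43, up to 85826 (SD 5.88), and Atf3, a stress-induced transcription factor, at 0 in 24 and at 1000 reads or more in 27 (SD 5.97). The other nuclear members were Pdia3, Atp6v0e, Rps3a1 and Ppp1ca. Rps3a1 is uncertain, since copies of it such as Rps3a2 share its sequence. Among all gene types, mt-Co1 (SD 6.54), Rn18s-rs5 (6.32) and mt-Nd1 (6.23) had the largest SDs, with the limit on copies given above. With CPM in place of deposited values, 17 of the 20 protein-coding nuclear genes remained among the leading 20, compared with 12 with a pseudocount of 100 and 14 when the ranking was limited to genes found in 29 cells or more.

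**Figure D4:**
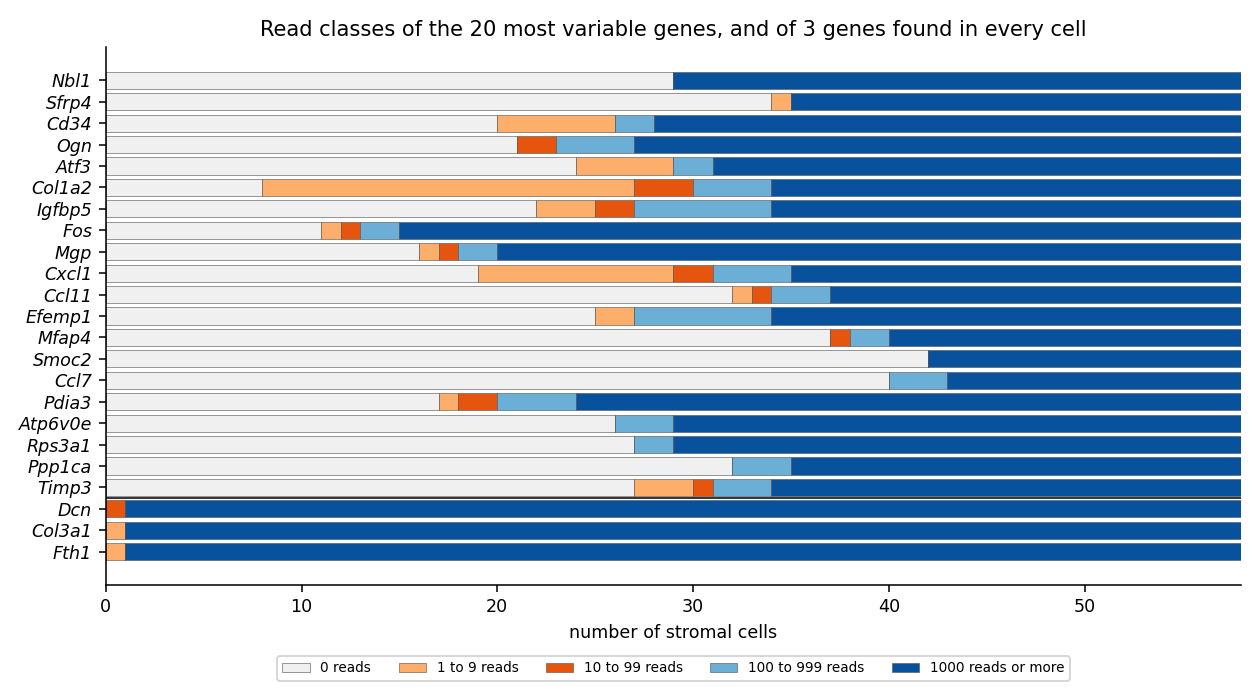
Number of stromal cells (of 58) in 5 classes of recovered reads for the 20 most variable protein-coding nuclear genes, and below the line for Dcn, Col3a1 and Fth1. Grey is 0 reads and dark blue 1000 reads or more, and Nbl1 splits into 29 and 29 cells while Dcn has 57 cells in dark blue.

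Spearman correlations of the deposited values were computed for all 44850 pairs of the 300 most variable protein-coding nuclear genes. They had a median of 0.06, with 60 pairs at 0.5 or above and 2 at -0.5 or below, so the pairs of these genes named here were picked as extremes. Mfap5, Cd248, Dpp4, Hsd11b1, Cp, Jun, Junb, Jund, Egr1, Ier2, Fosb, Socs3 and Zfp36 were not among the 300 genes, so that distribution is no background for their pairs, which were also chosen after their values were seen. The points are cells of 1 sample and share its preparation. Pi16, a secreted peptidase inhibitor of fibroblasts around vessels, was found in 45 cells and reached 100 reads in 39. Its correlation was 0.67 with Ackr3, a scavenger receptor of Cxcl12, 0.65 with Mfap5, 0.64 with Pcsk6, a proprotein convertase, 0.62 with Anxa3, 0.61 with Cd248, 0.59 with Fbn1 (fibrillin 1) and 0.55 with Cd55, a regulator of complement. At 100 reads or more, 28 cells held Pi16 and Ackr3, 11 held Pi16 alone, 7 Ackr3 alone and 12 neither. Pi16 had a correlation of -0.02 with the number of genes and 0.02 with the number of reads in a cell.

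Other genes had a negative correlation with Pi16. Sparcl1, a matricellular protein, reached 100 reads in 18 cells, of which 6 also held Pi16 at that level, so that 33 cells held Pi16 alone and 7 neither. The correlation was -0.56 for Sparcl1 and -0.51 for Steap4, a metalloreductase, and both genes had one of 0.59 with each other. Hsd11b1, which regenerates active glucocorticoid, and Cp (ceruloplasmin) each had -0.48. Without the 4 cells that held 3 endothelial or mesothelial markers at 100 reads or had 69 reads of Dcn, the values were 0.68 for Ackr3, 0.75 for Anxa3, -0.61 for Sparcl1 and -0.60 for Steap4. Of the 14 genes of the adventitial progenitor list, 6 were found in 29 cells or more, compared with 10.4% of all genes. These were Pi16, Ly6c1, Anxa3, Creb5, Sema3c and Has1, whereas Dact2, Wnt2 and Bmp7 were found in 1, 5 and 9 cells. The list held a median of 0.418% of the reads in the stromal cells and 0.572% in the other cells. Its median share was therefore not higher in the stromal cells, while its highest share was 2.05% there and 1.71% in the others. Pi16 with Dpp4, which marks the same fibroblasts in many tissues, had a correlation of 0.29, and 14 cells held both at 100 reads.

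**Figure D5:**
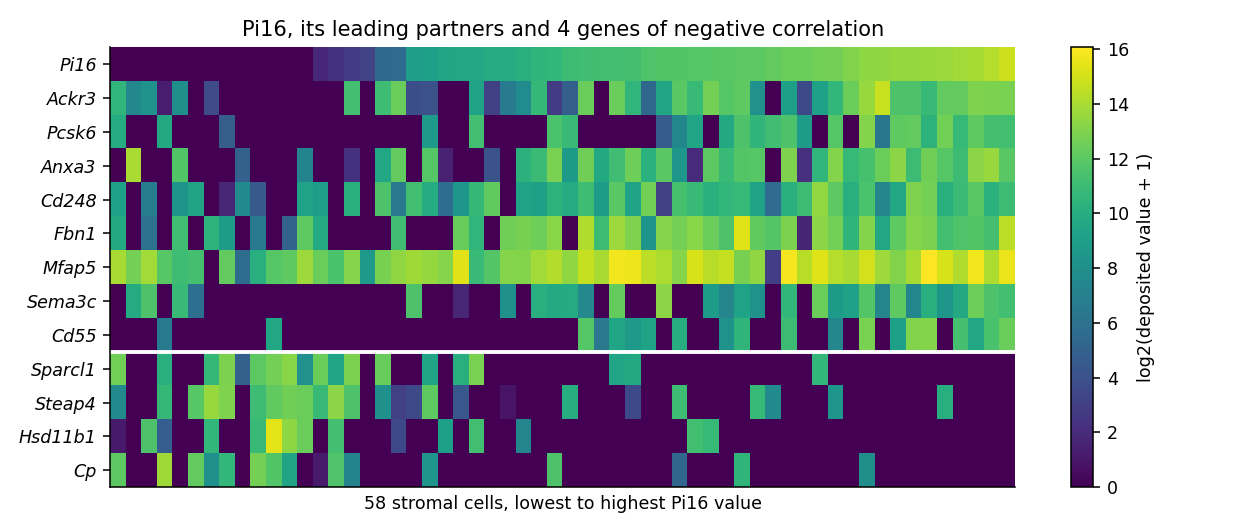
Heat map of log2(deposited value + 1) in the 58 stromal cells, from the lowest to the highest Pi16 value, for Pi16 and 8 genes of positive correlation above the white line and 4 of negative correlation below it. Sparcl1, Steap4, Hsd11b1 and Cp are dark in most cells on the right, where 33 of the 39 cells with 100 reads of Pi16 did not reach 100 reads of Sparcl1.

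Among immediate early genes, Fos had a correlation of 0.60 with Junb, 0.58 with Jund, 0.51 with Dusp1, a phosphatase of MAP kinases, 0.50 with Egr1, 0.47 with Ier2, 0.46 with Atf3, 0.38 with Fosb and 0.30 with Jun. Every one of the 45 cells with 100 reads of Fos also held Junb at that level, and 9 held Junb alone. Cxcl1 had one of 0.62 with Il6, 0.59 with Socs3, which curbs cytokine signaling, and 0.55 with Zfp36, which destabilizes cytokine mRNAs, but 0.12 with Fos. Of the 17 cells with 100 reads of Il6, 15 also held Cxcl1. All 27 cells with 100 reads of Cxcl1 held Mt1 at that level, as did 56 of the 58 cells in all.

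Markers of other cell types were at or near 0 in most stromal cells. Of 15 endothelial markers, Tie1 and Erg were above 0 in no stromal cell (0 of 58 cells, which allows a share of up to 5.17% of cells with a read and sets no limit on cells expressing the gene), and 40 cells held none at 100 reads. Their summed share of reads ranged from 0% to 1.42% (median 0.000463%) in the 58 cells, compared with 0% to 1.48% (median 0.959%) in the other 27. One cell held 6 of them at 100 reads, together with 3 erythroid markers and all 6 stromal markers. Whether its library held more than 1 cell was not tested. Pecam1, a marker of endothelial cells, was found in 14 cells with 1 of them at 100 reads, and Tek, an angiopoietin receptor, in 11 with 9 at 100 reads.

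Mesothelial markers were summed to at most 0.558% of the reads, and 2 cells held at least 5 of them at 100 reads. Those markers were Upk3b, Msln, Krt19, Lrrn4 and the like, each found in 3 cells or fewer, whereas Wt1, a transcription factor of mesothelium and of some fibroblasts, was found in 20. Of 11 mural cell markers, 7 were in the table. Rgs5 and Mcam were found in 0 cells and Abcc9 in 10, Cspg4 in 2 and Des in 1. Of 11 immune markers, 3 were in the table, Cd68 (2 cells), Csf1r (1) and Tyrobp (1). Of 10 adipocyte markers, only 2 were in the table, so most of that list could not be examined. Adipoq, a product of adipocytes, was found in 1 cell, and Adrb3 in 0. S100b and Mbp, the 2 of 6 glial markers in the table, were found in 6 and 3 cells. Of 12 proliferation genes, 6 were in the table, and of these Mki67, Mcm2 and Tyms were above 0 in no stromal cell. The part of these few cells in the results was measured by leaving them out. Without those 3 cells and the cell of 69 Dcn reads, 72 genes were above 0 in all 54, including all 45, and the leading 20 genes by level were the same.

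Of the 12 genes of the committed preadipocyte list, 3 were found in 29 cells or more, compared with 10.4% of all genes, and the median gene was found in 15.5 cells, compared with 5 in the whole table. Fabp4, Lpl (lipoprotein lipase), Col15a1, Apoe and Cd36 were found in 55, 53, 30, 24 and 18 cells, and reached 100 reads in 6, 41, 17, 17 and 2. Pparg, the master regulator of adipocyte differentiation, was found in 2 cells with at most 9 reads, Cebpa in 3 and Dlk1 in 1. The list's share of reads had a median of 0.104%, compared with 2.92% in the other 27 cells.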

How the data were processed

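RNA of single cells sorted from peri-aorta adipose tissue was measured in 85 libraries. The authors used FastQC, aligned reads with HISAT2 2.0.5 to mm9, and used SAMtools 1.4 and StringTie 1.3.3, per the submitters' processing notes, and scater for quality control and scaling. The program that counted reads is not given in the sources used here. The values the authors deposited are a signal of normalized read counts by gene symbol. Values of 5404 genes were taken as whole reads times a factor of their cell and of 1 of 13 gene groups (0.0157 to 94.5). The test covered 165973 values of genes above 0 in at least 10 cells, including genes with no factor. All of them came out whole. Genes with no factor were those already whole, and the factors were fitted to these same values, so the outcome was in part set in advance. With the factor of another group, 0.00208% of the tested values with a factor did. The other 10665 genes held whole numbers. On simulated reads with known factors the recovery was tested, but those factors spread less widely than the ones found here. A count test was not run, since there is 1 condition.

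Membership and SDs used deposited values, the latter as log2(value + 1) over genes above 0 in at least 10 cells. Levels used CPM of recovered reads, per kb of the union of exons in GENCODE vM21. Of the symbols, 15579 matched by name and 180 by an older name, and no coordinates of that build are given for the files. Detection was 1 read or more, with 10 and 100 reads as alternatives. Reads carry no molecular tags, so intervals cover counting error only. Doublets were not called. The libraries were made from cells sorted singly, which does not exclude a library of more than 1 cell.

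The members and the gene lists were chosen with earlier results of these data known. Genes named were the markers, the leading genes by level, ubiquity and SD, the members of each list found in the most and fewest cells, and the genes of the sort. The correlated pairs, the genes of uncertain copies and the lowest cell's genes were chosen after their values were seen. Gsn had stood in the list of metal genes in error and was taken out afterwards. Python 3.11.15, pandas 2.3.3, numpy 2.4.6, scipy 1.17.1 and matplotlib 3.10.9 were used. A few genes are not reported here.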

Additional observations from a re-analysis of the deposited data

How the results depend on the processing

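The number of stromal cells was between 52 and 58 under the other rules tried, and the share of reads in the 20 leading genes between 11.99% and 17.1%, each within the spread of the cells. The number of genes found in every stromal cell depended on the setting. It was 45 in all 58 cells, 16 at 10 reads or more, 7 at 100 reads or more, 137 in at least 95% of cells, and 116 in the 44 cells left without those of the fewest genes. In settings chosen after seeing the data, it was 69 without the cell under 100 reads of Dcn, 72 without the 4 cells with that property or with markers of other cell types, and 21 among protein-coding nuclear genes. Thinned to 1146945 reads per cell, 36.7 genes were expected. Of the 20 genes with the largest SD, 13 remained when each SD was set against genes of like mean, and between 14 and 20 in the other settings.

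No paired analysis was possible because there is 1 group and no test. Depth was at least 1146945 reads per cell, and a gene at 0 in a cell was not detected at that depth. Gene lists and promoter motifs were described under 1 setting.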

Other observations

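Of 22 transcription factors of stromal and positional identity in the table, 6 were found in 29 of the 58 stromal cells or more, compared with 10.4% of all genes, and the median gene was found in 13 cells, compared with 5 in the whole table. They were led by Nfib (54 cells), Nfia (45), Ebf1 (44), Prrx1 (42) and Tcf4 (39). Ebf2 was found in 34 and Osr1 in 23 cells, whereas Hoxc8 and Tbx18 were found in 2 cells each and Meox1 in 4. Secreted and membrane Wnt modulators were led by Sfrp1 (35 cells), Sfrp4 (24) and Fzd1 (24), and Wisp2 and Dkk3 were found in 4 each. Glycolytic genes were led by Gapdh, Ldha (45 cells), Aldoa (42), Hk2 (39) and Tpi1 (26).

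Further pairs with a high correlation across the 58 cells were Mfap4 with Cilp, both matrix proteins (0.73), the interferon-inducible genes Ifi205 and Ifi211 (0.72), and Prss23 with Sema3c (0.64). At 100 reads or more, 12 cells held Mfap4 and Cilp, 8 Mfap4 alone, 3 Cilp alone and 35 neither. Ifi205 and Ifi211 belong to a family of similar genes, so reads shared between them cannot be told apart. Nbl1 had a correlation of -0.48 with Cxcl1, where 8 cells held both at 100 reads and 10 neither.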
